A study of Drosophila melanogaster with 2 samples.

Results

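Peaks of the fly protein CG17806 were examined in the pericentric sequence of chromosome arms 2L, 3L, 3R and X and on chromosome 4. The members were the peaks called on both replicates together that lay on chromosome 4, or whose summit lay in the last 2 Mb of 2L, 3L or X or in the first 2 Mb of 3R. These were 270 of 30000 pooled peaks, with 131 on chromosome 4, 74 at the end of 2L and 65 at the end of X. Neither the end of 3L nor the start of 3R held a pooled peak. Binding was mapped by ChIP-seq, in which chromatin bound by a protein is precipitated and its DNA sequenced, in Drosophila melanogaster. Whole pupae at an age of 24 hours were used, from a transgenic line in which CG17806 is fused at its C-terminal end to green fluorescent protein (GFP). The chromatin was sonicated and the fusion precipitated with an antibody against GFP. The labels give 1 group of 2 biological replicates and no other genotype or treatment, so nothing here compares conditions, and whole animals mix all tissues. Besides the pooled list there is a list of 30000 peaks for each replicate, and a list of 7645 peaks thresholded on the irreproducible discovery rate (IDR), a measure of how well ranks match between replicates.

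Chromosome 4 of the fly, also called the dot chromosome or Muller element F, is small, rich in repeats and covered over much of its length by heterochromatin protein HP1a, yet its genes are expressed. The sequence next to the centromeres is likewise packed as heterochromatin and holds many remnants of transposable elements. Genes that normally sit there, such as light (lt), are known to need a heterochromatic surrounding for full expression, and flamenco (flam), a major source of Piwi-interacting RNAs against transposons, lies at the border of the heterochromatin of X.

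The sequences under the strongest members are shown first, because the base composition and repeat content of these sites are described further on. Each is the plus strand of the Release 6 (dm6) reference over 151 bp centred on the summit, and capitals mark the longest run of A and T in it. The windows carry no annotated untranslated region. PlexA (chr4:1027203-1027353), CG31612 (chr2L:21794868-21795018) and lncRNA:CR44711 (chrX:21594013-21594163) name the strongest such member of chromosome 4, of the 2L end and of the X end by the nearest start site.
PlexA: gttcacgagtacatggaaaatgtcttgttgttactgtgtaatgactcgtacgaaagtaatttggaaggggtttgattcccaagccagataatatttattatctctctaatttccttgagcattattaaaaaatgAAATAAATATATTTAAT
CG31612: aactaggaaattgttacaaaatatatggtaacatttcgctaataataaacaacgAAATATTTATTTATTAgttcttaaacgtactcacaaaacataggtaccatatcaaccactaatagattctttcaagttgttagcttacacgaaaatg
lncRNA:CR44711: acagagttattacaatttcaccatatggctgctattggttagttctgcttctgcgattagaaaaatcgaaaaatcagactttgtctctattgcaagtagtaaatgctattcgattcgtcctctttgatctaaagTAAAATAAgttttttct
The longest run was 17 bases at PlexA, 16 at CG31612 and 8 at lncRNA:CR44711, and A and T made up 70.2%, 72.8% and 67.5% of the windows. The IDR members at the flam promoter (chrX:21631648-21631798), at Sox102F (chr4:807506-807656) and at CaMKII (chr4:1053934-1054084) are added because these loci are named in the results.
lncRNA:flam: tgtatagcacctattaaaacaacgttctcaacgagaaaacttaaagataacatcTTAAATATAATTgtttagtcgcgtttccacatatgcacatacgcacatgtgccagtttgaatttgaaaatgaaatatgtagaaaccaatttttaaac
Sox102F: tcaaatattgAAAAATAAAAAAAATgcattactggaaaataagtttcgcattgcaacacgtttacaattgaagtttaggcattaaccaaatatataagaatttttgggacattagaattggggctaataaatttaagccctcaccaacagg
CaMKII: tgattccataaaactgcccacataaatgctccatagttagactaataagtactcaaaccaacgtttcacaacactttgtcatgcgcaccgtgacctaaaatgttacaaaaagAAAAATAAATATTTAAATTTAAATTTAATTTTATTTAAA
The last sequence is the strongest member whose summit lies in an INE-1 element, a short transposon remnant spread over the fly genome. It lies in an intron near CG2201 (chr2L:21619318-21619468) and was 1 of 373 similar copies in the genome.
CG2201: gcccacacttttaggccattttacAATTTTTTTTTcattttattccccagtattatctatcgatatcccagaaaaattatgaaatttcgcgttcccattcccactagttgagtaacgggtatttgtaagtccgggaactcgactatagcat

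Pooled peaks were sparser in these regions than along the rest of the same arms. Chromosome 4 held 98.4 peaks per Mb of known bases (exact Poisson 95% interval 82.3 to 117), the 2L end 37 per Mb (29.1 to 46.5) and the X end 33.6 per Mb (25.9 to 42.8). The rest of 2L, 3L, 3R and X held 247 per Mb (244 to 250). Part of this sequence is repeated, and reads from repeats are often not placed, so density was also computed over positions whose 32-base word occurs once in the assembly. Unique sequence of this kind made up 84.4% of chromosome 4, 57.2% of the 2L end and 40.7% of the X end, against 92.4% of the rest. Per Mb of unique sequence, chromosome 4 held 117 peaks (97.5 to 138), the 2L end 64.7 (50.8 to 81.2), the X end 82.5 (63.7 to 105) and the rest 267 (264 to 270). The intervals of the 3 regions lay below that of the rest on both scales. These intervals cover counting error only, neighbouring peaks are not independent, and read depth and the control reads were not used here.

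The position of the lowest density differed between arms. On 2L, 1 pooled peak lay within 1 Mb of the end, at Spf45, which encodes a splicing factor, 0.445 Mb from the end. Of the 74 members of the 2L end, 57 lay between 1.5 and 2 Mb from it, as did all 10 of its IDR peaks. In that stretch 82.4% of the sequence was unique. The 37 per Mb of the 2L end thus averages a nearly empty stretch and a denser one. On X, 34 pooled peaks lay within 1 Mb, and the outermost was at ATbp, 0.436 Mb from the end. On 3L the outermost pooled peak, at CG33217, lay 4.98 Mb from the end, and on 3R the outermost, at Gfat1, lay 4.13 Mb from the start. The unique sequence of the last 2 Mb of 3L was 0.516 Mb and that of the first 2 Mb of 3R 0.586 Mb. A count of 0 there allows up to 5.81 and 5.12 pooled peaks per Mb of unique sequence at 3 counts, and the exact Poisson 95% intervals reach 7.15 and 6.3. These limits cover counting error only. Whether both replicates were aligned and filtered alike in this sequence is not known here, and replicate 2 alone had peaks there, so a count of 0 describes the pooled list and is not a measure of absent binding.

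**Figure D1:**
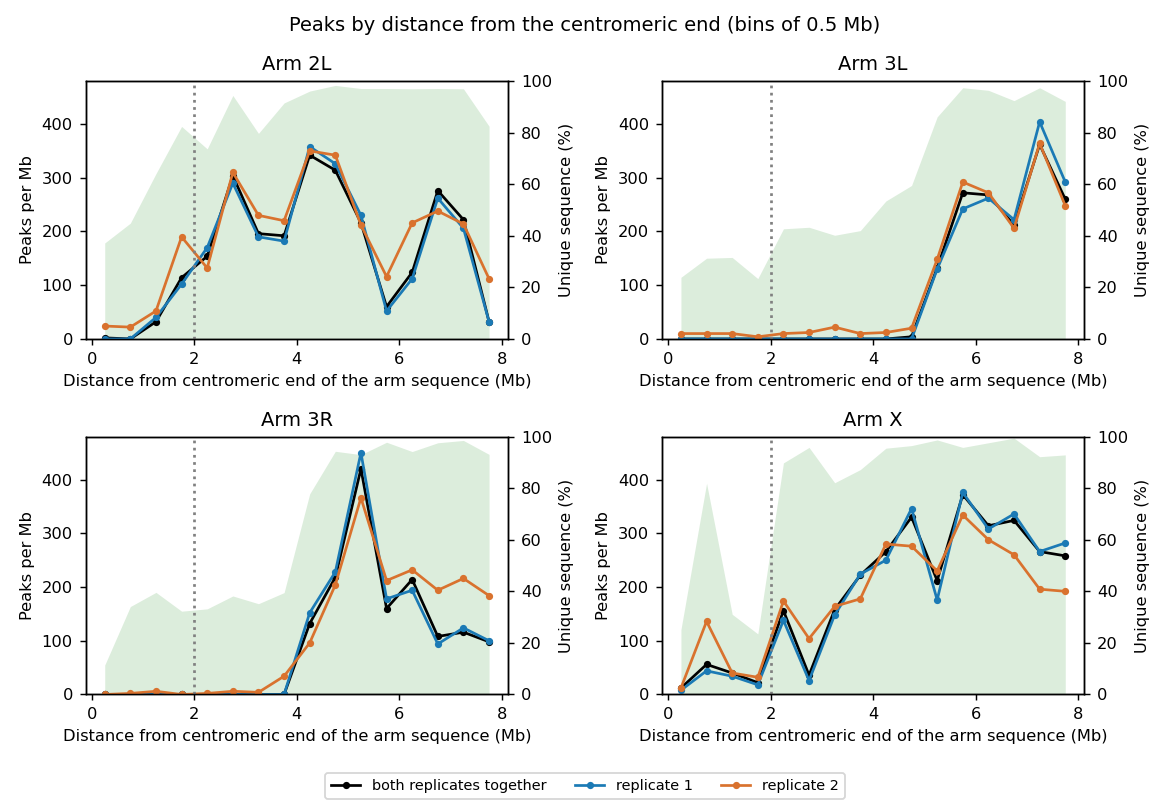
Peaks per Mb (left axis) in bins of 0.5 Mb by distance from the centromeric end of each arm sequence, for the pooled list (black) and the lists of replicate 1 (blue) and replicate 2 (orange). Green shading is the share of unique sequence (right axis, %) and the dotted line is the 2 Mb boundary; on 3L and 3R the pooled list and that of replicate 1 stay at 0 for 4 Mb from the end, while that of replicate 2 does not.

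The lists of the replicates, each of 30000 peaks, differed in how many peaks they had in these regions. Replicate 1 had 196 peaks on chromosome 4 and replicate 2 had 100. At the 2L end replicate 1 had 71 peaks and replicate 2 had 144, and at the X end the counts were 52 and 110. On the rest of 2L, 3L, 3R and X the counts were 24296 and 24587. Replicate 1 was thus the higher of the pair on chromosome 4 and the lower at the 2L and X ends. The intervals of the densities did not overlap on chromosome 4 (127 to 169 against 61.1 to 91.4 per Mb), at the 2L end (27.7 to 44.8 against 60.7 to 84.8) or at the X end (20.1 to 35.3 against 46.7 to 68.6). With 1 list on each side this compares the lists, and its cause was not tested.

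**Figure D2:**
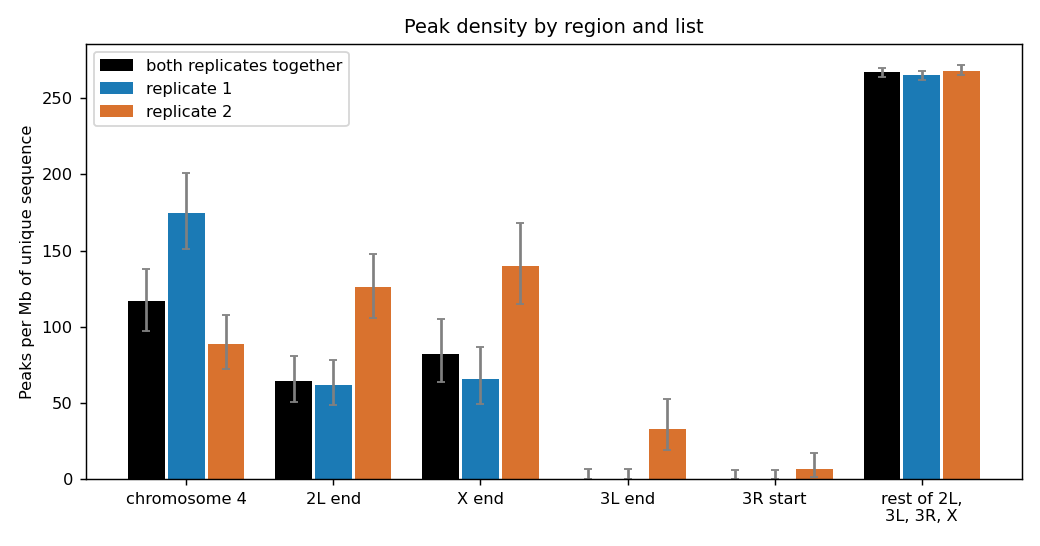
Peaks per Mb of unique sequence in each region for the pooled list and the lists of the replicates, with exact Poisson 95% intervals as error bars. All bars of the 5 regions lie below those of the rest, the order of the replicates turns between chromosome 4 and the ends of 2L and X, and the pooled list and replicate 1 have no peak at the 3L end or the 3R start.

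The ends without a pooled peak were not empty in replicate 2. Its list held 17 peaks at the 3L end and 4 at the 3R start, and none of these had a summit of replicate 1 or of the pooled list within 100 bp. The strongest lay at promoters of genes of the 3L heterochromatin. The ribosomal protein gene RpL15 had a summit 126 bp upstream of its start site, at rank 3873 of 30000 by signal. Dbp80, a DEAD-box RNA helicase gene, had one 63 bp upstream at rank 4402, and vtd, which encodes the cohesin subunit Rad21, had one 131 bp upstream at rank 4917. CG40228 followed with a summit 123 bp upstream at rank 5784, and the translation initiation factor gene eIF4B with one 118 bp upstream at rank 10438. These promoter windows were wholly unique in the assembly and held no annotated transposon. The first 4 had a −log10 q of 4.09, also that replicate's highest on chromosome 4 and at the 2L and X ends. Peaks of unlike rank share this value, so it does not order them by strength. Of the 17, 7 reached 1.3. At the 3R start none of the 4 reached 1.3; the strongest lay 160 bp upstream of the unconventional myosin gene Myo81F at rank 22048.

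The same held for genes of the 2L heterochromatin. Replicate 2 had summits near start sites of the G protein gene cta (rank 4448, 43 bp away), of the ribosomal protein genes RpL21 (rank 5486, 61 bp) and RpL5 (rank 9659, 39 bp) and of lt, which acts in vesicle transport (rank 5636, 111 bp). None of these 4 genes had a start-site summit, that is one at most 500 bp away, in replicate 1 or in the pooled list. Of the 10 genes on a list of pericentric genes known to work inside heterochromatin, 9 had one in replicate 2, 1 had one in replicate 1 and 1 in the pooled list. Among all protein-coding genes of the 5 regions, 28.8% had a pooled one, and the lists of replicate 1 and replicate 2 gave 30.4% and 31.2%. Without the histone genes of 2L these were 32.2%, 34.1% and 35%. Outside the regions they were 45.6%, 47.5% and 42.3%. Here and for the gene lists that follow, a gene's rank in a list is that of the strongest summit of that list at any of its start sites, and the summits can differ between lists. Of 30 listed genes with a pooled summit, 17 had in at least 1 replicate a strongest start-site summit other than the one within 100 bp of the pooled summit. The gene found in the pooled list and in both replicates was su(f), which encodes an mRNA cleavage factor, on X, at rank 21055 in the pooled list, 21857 in replicate 1 and 12924 in replicate 2. Replicate 1 had no summit within 100 bp of the pooled one, the nearest being 815 bp away. Marf1 had none in any list. Within 1 Mb of the 2L end replicate 2 had 23 peaks and replicate 1 had 0, and within 4 Mb of the 3L end the counts were 44 and 0. Within 4 Mb of the 3R start they were 27 and 0.

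Peaks of comparable rank elsewhere were mostly shared with the pooled list. Of the 6000 strongest peaks of replicate 2, 5959 lay outside the 5 regions, and 5608 of those (94.1%) had a pooled summit within 100 bp. The share was 0 of 4 at the 3L end, 8 of 13 at the 2L end, 10 of 11 at the X end and 9 of 13 on chromosome 4. Of the 6000 strongest peaks of replicate 1, 98.7% of the 5978 outside the regions had such a pooled summit. The regions gave 5 of 6 at the 2L end, 8 of 8 at the X end and 6 of 8 on chromosome 4.

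Fewer of the 270 members than of all pooled peaks were in the IDR list or had a summit of replicate 2. The IDR list held 38 members, or 14.1% (Wilson 95% interval 10.4 to 18.7), against 25.5% of all pooled peaks. These 38 were 16 on chromosome 4, 10 at the 2L end and 12 at the X end. All 7645 IDR peaks stood within the first 7645 ranks of the pooled list, so this share and the lower signal ranks of the members are 1 observation. A summit of replicate 1 lay within 100 bp of 197 members (73%, 67.4 to 77.9), against 77.1% of all pooled peaks, which lies inside the interval. For replicate 2 these were 125 members (46.3%, 40.4 to 52.3), against 54.7%. Summits of both replicates lay near 88 members (32.6%, 27.3 to 38.4), against 43.8%, and 36 members (13.3%, 9.79 to 17.9) had a summit of neither, against 12% of the other pooled peaks. A −log10 q of at least 1.3, a q-value of about 0.05 or lower, was reached by 158 members (58.5%, 52.6 to 64.2), against 62.8%, so the shares for q, for replicate 1 and for neither replicate were near those of other peaks. At like ranks the members were closer to other pooled peaks for replicate 2. The shares were 85.7% and 90.7% at ranks 1 to 10000, and 49.1% and 49.1% at the middle 10000 ranks. At ranks 20001 to 30000 they were 21.6% and 24.4%. The 49.1% of members joins unlike regions, with 35.8% on chromosome 4, 59.1% at the 2L end and 78.3% (58.1 to 90.3) at the X end. For replicate 1 the shares were 94.6% and 96%, 77.7% (69.1 to 84.4) and 84.9%, and 55.9% and 50.4%. At its middle ranks the 84.9% lay outside the members' interval.

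The 3 regions differed in which replicate lay behind their members. On chromosome 4, 80.9% of members (73.3 to 86.7) had a summit of replicate 1 and 35.1% (27.5 to 43.6) one of replicate 2. At the 2L end the shares were 68.9% and 51.4%, and at the X end 61.5% and 63.1%. Among chromosome 4 members at ranks 20001 to 30000 of the pooled list, 29 of 40 had a summit of replicate 1 and 3 of 40 one of replicate 2, while the other pooled peaks of those ranks had 50.4% and 24.4%. At ranks 1 to 10000, 24 of 24 chromosome 4 members had a summit of replicate 1 and 19 of 24 one of replicate 2, against 96% and 90.7% of other pooled peaks. At the middle 10000 ranks the shares were 79.1% and 35.8% on chromosome 4, against 84.9% and 49.1%. All 16 IDR members of chromosome 4 had a summit of replicate 1 and 12 had one of replicate 2, against 97% and 95.1% of the other IDR peaks.

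**Figure D3:**
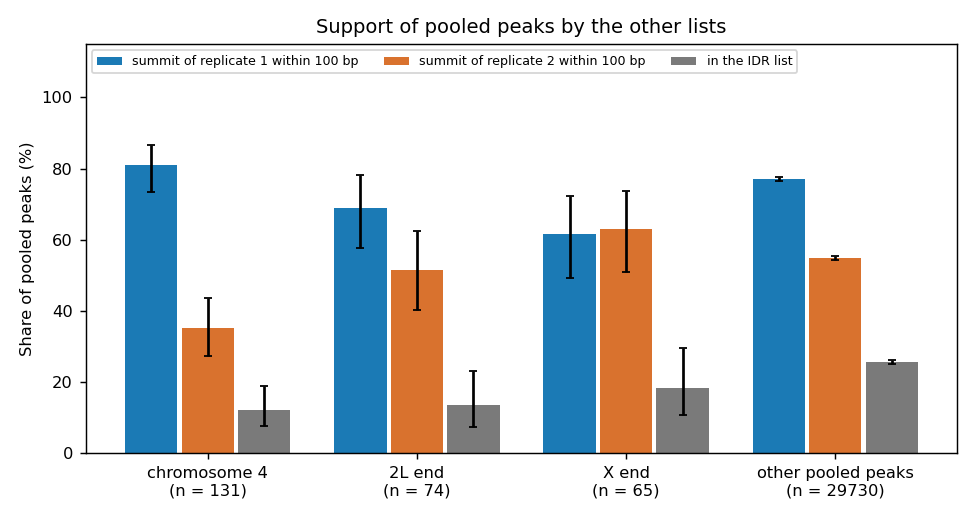
Share of pooled peaks (%) with a summit of replicate 1 or replicate 2 within 100 bp, or listed under the IDR threshold, by region, with Wilson 95% intervals. On chromosome 4 the share for replicate 1 is 80.9% and that for replicate 2 is 35.1%, whereas at the X end they are 61.5% and 63.1%.

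Members ranked lower by signal than other pooled peaks. Signals are the authors' values on a scale of each list's own, so only ranks inside a list are given. The median rank was 16686.5 for the members and 14979.5 for the others, with 15962 on chromosome 4, 18352 at the 2L end and 18042 at the X end. Ranks 1 to 6000 of the pooled list held 26 members, or 9.63% (6.66 to 13.7), and 20.1% of the other peaks. Ranks 6001 to 12000 held 19.3% of members, ranks 12001 to 18000 held 24.8%, ranks 18001 to 24000 held 24.1% and ranks 24001 to 30000 held 22.2%.

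The strongest member of all lay in an intron of CG31612 at the 2L end, 504 bp downstream of a start site. It stood at rank 299 in the pooled list, 265 in replicate 1 and 397 in replicate 2, so it was high in every list. The strongest on chromosome 4 lay in the 3' UTR of Cals, the gene of the synaptic membrane protein calsyntenin. Its ranks were 820 in the pooled list, 865 in replicate 1 and 833 in replicate 2. The next was 177 bp upstream of PlexA, which encodes a receptor for semaphorin guidance cues, at rank 836 in the pooled list, 2271 in replicate 1 and 181 in replicate 2. It thus stood nearer the top in replicate 2, where no peak of chromosome 4 ranked higher. The strongest X member lay between genes, 10286 bp from the start site of lncRNA:CR44711, at ranks 968, 997 and 897 in the pooled list, replicate 1 and replicate 2.

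Members near flam and its neighbour were found in every list. A summit 168 bp upstream of flam ranked 4088 in the pooled list, 3809 in replicate 1 and 4776 in replicate 2. A summit 120 bp downstream of the start site of DIP1, which encodes a double-stranded RNA binding protein, ranked 2156, 1862 and 3729. Both were IDR members and wholly unique, and in both cases the ranks lay within the first 6000 of each replicate's list.

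Members lay at promoters more often than other pooled peaks did, when a promoter is the sequence within 500 bp of any start site. Of the 270, 114 (42.2%) were at promoters, 86 (31.9%) in introns, 48 (17.8%) between genes, 8 in other exons, 6 in coding exons, 5 in 3' UTRs and 3 in 5' UTRs. The other pooled peaks had 28.6% at promoters, 45.6% in introns and 19.4% between genes. Promoters made up 10.9% of the bases of chromosome 4 and 42.7% of its members (ratio 3.92). At the 2L end they made up 6.57% of bases and 37.8% of members (ratio 5.75), and at the X end 5.35% of bases and 46.2% of members (ratio 8.64). The rest of 2L, 3L, 3R and X had 14.2% of its bases in promoters, and 28.6% of the other pooled peaks were at promoters (ratio 2.01). Those peaks also include 2R, whose bases are not in the 14.2%. In the lists of the replicates, 44.5% of the peaks of replicate 1 in these regions were at promoters and 26.4% of those of replicate 2. The latter include its peaks at the 3L end and the 3R start. The promoter shares of each replicate's peaks outside the regions are not given here. Intergenic sequence was 62.8% of the 2L end and 64% of the X end but held 23% and 16.9% of their members. Much of that sequence is repeated, so the promoter share was also taken over unique positions alone. It was then 12.2% on chromosome 4, 8.9% at the 2L end, 8.07% at the X end and 15% in the rest, and the ratios were 3.51, 4.25, 5.72 and 1.91. The last ratio likewise sets peaks that include 2R against positions that do not. Of the promoter members, 70 of 114 (61.4%, 52.2 to 69.8) had the summit upstream of the start site, at a median position of 62.5 bp upstream, against 59.3% and 48 bp upstream for other promoter peaks.

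**Figure D4:**
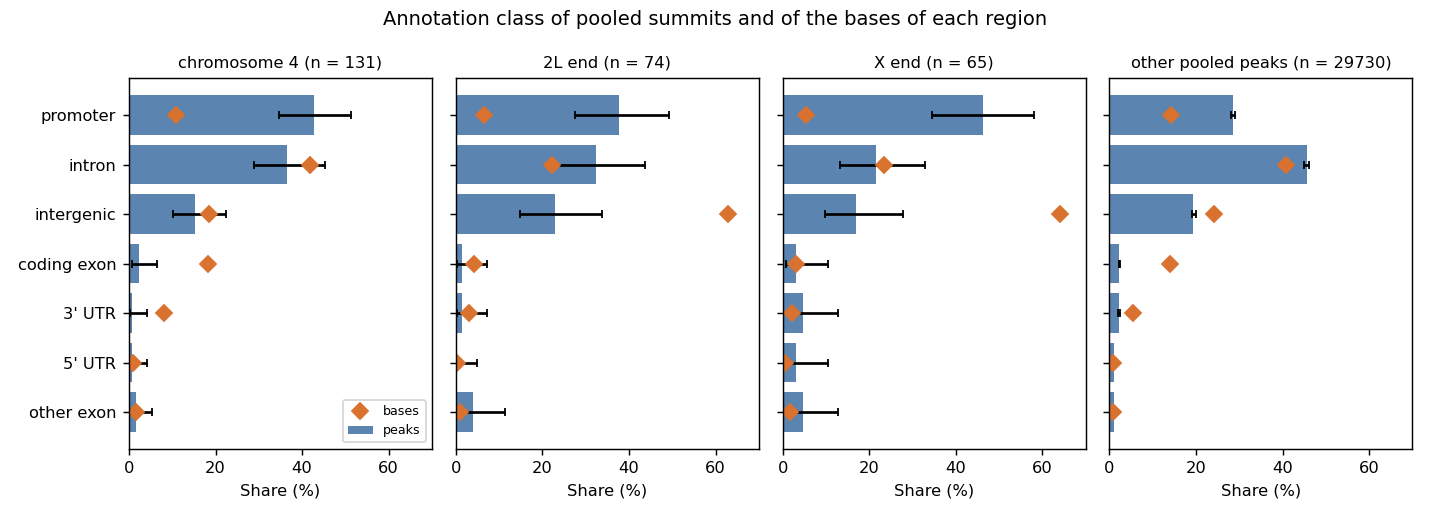
Share of pooled summits in each annotation class (bars, %, with Wilson 95% intervals) and share of the bases of the region in that class (diamonds, %). In each region the promoter bar lies above its diamond, as it does for the other pooled peaks, whose diamonds are drawn for the rest of 2L, 3L, 3R and X.

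On chromosome 4, 34 of 80 protein-coding genes (42.5%, 32.3 to 53.4) had a pooled start-site summit, which is close to the 6250 of 13705 (45.6%) of genes outside the 5 regions. In the IDR list the shares were 10% (5.15 to 18.5) and 19.7%. Replicate 1 had 44 of the 80 genes and replicate 2 had 25. At the X end 20 of 67 genes (29.9%) had a pooled summit. At the 2L end these were 15 of 83 genes, or 15 of 57 (26.3%) without the 26 histone genes of the annotation there. The histone genes form a repeated cluster, and none of the 26 had a summit in any list. The 3L end has 9 protein-coding genes and the 3R start 1. None had a pooled summit, while 5 and 1 had a summit of replicate 2.

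A list of chromosome 4 genes drawn up as transcription and chromatin regulators also held the kinase genes Dyrk3 and Asator, and yellow-h. It had a pooled summit at 6 of 19 genes (31.6%, 15.4 to 54), with 9 in replicate 1 and 6 in replicate 2. All 80 protein-coding genes of chromosome 4 gave 34 (42.5%), 44 and 25. That 42.5% lies inside the interval of this list and of the other chromosome 4 lists below. Sox102F, which encodes a Sox-family transcription factor, was the strongest of the 19. Its summit lay 234 bp upstream of a start site. It ranked 2738 in the pooled list, 2758 in replicate 1 and 2547 in replicate 2. The zinc-finger homeodomain gene zfh2 ranked 10889, 7911 and 19030, where the summit of replicate 2 is another one: its nearest to the pooled summit lay 254 bp away. The Hedgehog pathway effector ci ranked 13641 at its start site, 8061 in replicate 1 and 18767 in replicate 2, the last again at another summit, with the nearest of replicate 2 at 286 bp. The Wnt pathway effector pan (13778 and 15849), the kinase gene Dyrk3 (11927 and 10894) and Asator, a tau-tubulin kinase homologue (20394 and 11195), had start-site summits in the pooled list and replicate 1 and none in replicate 2. The eye regulator ey was reached in replicate 2 alone, at rank 5803, although an IDR member lay 751 bp upstream of it, at rank 7599 in the pooled list and 8316 in replicate 1.

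Neuronal and axon guidance genes of chromosome 4 had pooled summits at 9 of 18 genes, against 34 of the 80 genes there. Replicate 1 had 10 of the 18 and replicate 2 had 7, against 44 and 25 of the 80. Besides PlexA, pooled summits lay at its relative PlexB, ranked 7823 in the pooled list, 11119 in replicate 1 and 4100 in replicate 2. At the pooled summit of PlexB itself the rank in replicate 1 was 21819. CaMKII, the calcium and calmodulin dependent kinase, had an IDR member 306 bp upstream at ranks 7569, 8552 and 7713. Slip1 ranked 5806, 10955 and 3837, and Zyx, the gene of the adhesion protein zyxin, 12302, 16926 and 7048. PlexA, PlexB, Slip1 and Zyx were each nearer the top in replicate 2, whereas Cals (8959 and 7232), Ephrin (14598 and 10305) and Pur-alpha (15669 and 12375) had start-site summits in the pooled list and replicate 1 and none in replicate 2. Cadps, a vesicle priming gene, shares its strongest pooled start-site summit with Dyrk3. The nearest summit of replicate 2 lay 974 bp from that one, and the rank of 21352 for Cadps in replicate 2 is at another summit.

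Pooled summits lay at 34 of the 80 genes of chromosome 4. Housekeeping genes there had them at 5 of 11 genes and growth factor and signalling genes at 3 of 11. The strongest was gw, which encodes a partner of Argonaute in microRNA silencing, with a member 114 bp upstream at rank 1566 in the pooled list and 1630 in replicate 1. Replicate 2 had no summit within 100 bp of it, and its nearest lay 629 bp away, though at rank 6556 within 500 bp of a start site of gw. RpS3A, a ribosomal protein gene, had a member 29 bp upstream at ranks 6316, 6593 and 3338, and ATPsynbeta, the beta subunit of mitochondrial ATP synthase, ranked 8701, 4634 and 6269, while the replicate 1 summit at the pooled one ranked 13097. MED26, a Mediator subunit gene, ranked 22103, 19578 and 14115, and Zip102B, a zinc transporter gene, had 17032 and 14162 and none in replicate 2. Among signalling genes, the TGF-beta ligand gene myo had an IDR member 46 bp downstream at rank 6795 in the pooled list and 6447 in replicate 1. The transcription factor gene Mitf ranked 19691 and 13035, and Arl4 14276 and 19410. None of the 11 signalling genes had a start-site summit in replicate 2, against 5 in replicate 1. The 80 genes of chromosome 4 gave 25 and 44.

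Near the centromeric ends, all 5 genes on a list of developmental regulators that fall in the regions had a pooled summit at a start site (Wilson 95% interval 56.6 to 100%), against 21.9% of protein-coding genes of the 4 centromeric ends and 45.6% of those outside the 5 regions. That 21.9% counts the histone genes of 2L and the row of genes from CG40813 to CG41562 on X, none with a summit. The list was drawn up with earlier results of these data known, so these shares do not show that such genes are bound more often. It also holds DIP1, the gene of a double-stranded RNA binding protein. Only DIP1 of the 5 was in the IDR list. The others were weaker: fog, a secreted ligand of gastrulation, ranked 12018 in the pooled list, 16618 in replicate 1 and 10334 in replicate 2, while the replicate 1 summit at the pooled one ranked 21247. The homeotic gene tsh ranked 24738, 19838 and 26337. Its paralogue tio had 22163 and 20035 and none in replicate 2, and wap had 16995, none in replicate 1 and 8793 in replicate 2. Of the other list, flam was found and lncRNA:sphinx had no summit in the pooled list.

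Among other IDR members of the 2L end, a summit 161 bp upstream of step, the gene of a guanine exchange factor for Arf proteins, ranked 4824 in the pooled list, 7218 in replicate 1 and 2639 in replicate 2. Df31, which encodes a chromatin decondensation factor, had a member 18 bp upstream at rank 7105 in the pooled list and 6058 in replicate 1. A member in lncRNA:CR44917 ranked 1973, 2278 and 1512. On X, a summit 140 bp upstream of mir-2491, inside fog, ranked 2685, 2739 and 2679, and one in an intron of the chitin deacetylase gene Cda4 ranked 4416, 4078 and 5552. CG17167 had an IDR member 274 bp upstream at 6873, 7347 and 7345. The remaining IDR members lay near lncRNA and protein-coding genes of these loci and ranked between 2372 and 7119.

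When members less than 5000 bp apart were joined, the 270 formed 65 loci. Of these, 19 were single peaks and 28 had at least 4 members, together 209 members. Other pooled peaks were not joined in this way. Their density in the rest of 2L, 3L, 3R and X was higher, at 247 per Mb. The counts thus describe the members and do not set them apart from other peaks. The largest locus had 18 members over 20028 bp of chromosome 4, from ci through RpS3A to pan. It held 3 IDR members, the best of them at rank 2372. Next came 12 members over 10557 bp from CG2201 to Df31 on 2L and 12 over 10428 bp around CaMKII, Zyx and apolpp on chromosome 4. A locus at fog on X had 11, Asator had 10 over 8215 bp, and zfh2 had neighbouring loci of 10 and 9 members, none of these 19 in the IDR list. By contrast, chromosome 4 had 1 pooled peak between 700 and 800 kb and 0 between 900 and 1000 kb, although 91.2% and 88.3% of those bases are unique. Replicate 1 and replicate 2 had 3 and 6 peaks in the former stretch and 3 and 5 in the latter.

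Repeats were more frequent under members than under other pooled peaks. A window of 201 bp around the summit was wholly unique at 239 members (88.5%, 84.2 to 91.8) and at 98.4% of other pooled peaks. At least 50% of the window was annotated transposon at 26 members (9.63%, 6.66 to 13.7) and at 0.276% of the others. Windows of that length tiled over the regions had this property in 24.5% of cases on chromosome 4, 17.4% at the 2L end and 20.8% at the X end, against 9.16% (5.32 to 15.3), 10.8% (5.58 to 19.9) and 9.23% (4.3 to 18.7) of members, so at the 2L end the share of windows lay inside the members' interval. INE-1 was at the summit of 16 members (5.93%) and of 0.151% of other pooled peaks. It was at 4.58% of chromosome 4 summits (2.12 to 9.63), 9.46% of 2L summits (4.66 to 18.3) and 4.62% of X summits (1.58 to 12.7), and covers 7.22%, 2.5% and 1.76% of the bases there. Similar copies elsewhere, with at least 80% identity over 100 bp, were found for 29 members (10.7%) and 0.817% of the others. The strongest member whose window was mostly transposon, in an HB element near CG31612, ranked 8139 in the pooled list, 9513 in replicate 1 and 11981 in replicate 2. The INE-1 member near CG2201 ranked 11173, 13631 and 9221.

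The A and T content at summits was high in the members, but so was that of their surroundings. Over 101 bp at the summit it averaged 63.9% ± 8.6 (SD, n = 270 peaks) in the members and 62.1% ± 10.5 (SD, n = 29730) in the others. In flanks centred 250 bp to each side it was 62.5% ± 8.79 and 56.6% ± 8.28. On chromosome 4 the summit had 64.7% and the flanks 65.6%, with the summit above its flanks in 42.7% of members (34.6 to 51.3). At the X end the summit had 64.4% and the flanks 58.4%, with the summit higher in 72.3% (60.4 to 81.7), and at the 2L end 61.9% and 60.7%, with 47.3% (36.3 to 58.5). Among other pooled peaks the summit was higher in 63.5%. For the 38 IDR members the summit exceeded the flanks by 3.8 percentage points ± 13.8 (SD), and for the 7607 other IDR peaks by 14.5 ± 12.2 (SD). The summits of these IDR peaks had 66.3% and 68.9% A and T, while their flanks had 62.5% and 54.4%, so most of that gap lay in the flanks. The bases of chromosome 4 are 64.8% A and T.

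**Figure D5:**
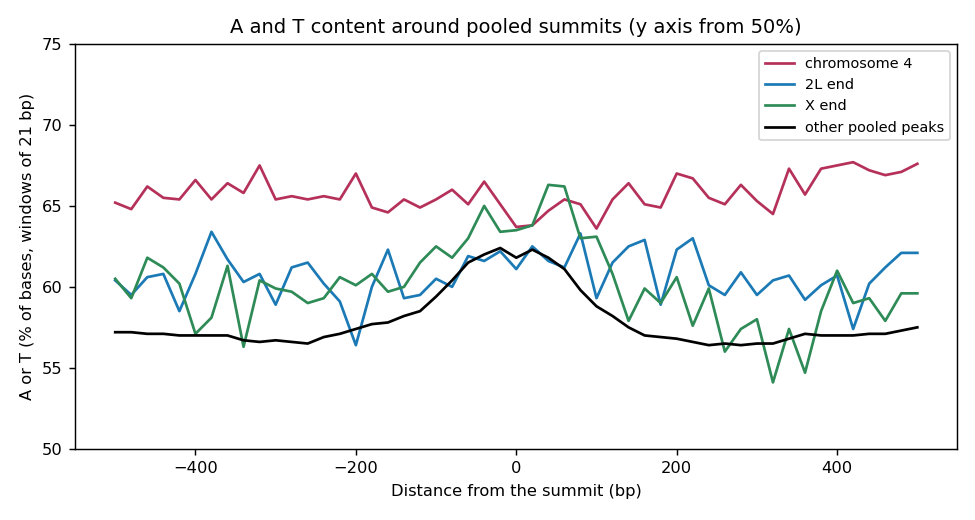
Mean A and T content (%, y axis from 50%) in windows of 21 bp by distance from the summit (bp) for members of each region and for the other pooled peaks. The other peaks and the X end have a maximum near the summit, and the line of chromosome 4 has none.

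Short motifs were searched on both strands within 100 bp of the summit. The TATA box core TATAAA occurred at 53 of 131 chromosome 4 members (40.5%, 32.4 to 49), at 29.7% of 2L members (20.5 to 40.9), 26.2% of X members (17 to 38), 34.1% of all members and at 29.6% of other pooled peaks. It was in 28.7% of windows of the same length over chromosome 4 and the 2L and X ends and in 21.5% of those over the rest. No share was computed over the windows of chromosome 4 alone. Its bases are 64.8% A and T, against 60.7% at the 2L end and 59.1% at the X end. The shares of chromosome 4 members for this word and for GAGAG thus have no background of their own. The GAGA element GAGAG occurred at 15.3% of chromosome 4 members (10.1 to 22.4), 31.1% of 2L members (21.7 to 42.3) and 26.2% of X members (17 to 38), against 23% of other peaks and 21.4% of windows in either background. The core CGATA of the insulator protein BEAF-32 was at 25.9% of members and 23% of others, with 24.2% and 21% of windows. The DNA replication-related element TATCGATA, which contains CGATA on both strands, was at 6 members (2.22%) and 1.57% of others. Of 379 region windows with it, 141 (37.2%) overlapped an INE-1 element, as did 2 of the 6 members, including the CG2201 sequence printed above. Other words were near or below other peaks: GGTCACAC at 0.741% of members, CAGCTG at 4.07% and CACACACA at 3.33%, against 1.26%, 7.9% and 5.17% of others. A run of AAAAAAAA was at 13.3% of members and 17.5% of others. Windows had 0.294%, 4.93%, 1.61% and 10% of these words over the regions, and 0.44%, 8.7%, 4.44% and 11.1% over the rest. Of 5 simple satellites searched, each as a 5-base unit repeated in tandem, the AATAT satellite was at 1 member and none of the others was at any, which allows a share of up to 1.4% of members (Wilson 95% upper bound). Arrays of satellites are largely outside the assembled arms, so these letters say nothing of them.

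The boundary of 2 Mb fell in sparse sequence. The first member inside it on 2L, near Lamp1, lay 58871 bp inside and ranked 23970, and the first pooled peak outside, at crc, lay 199679 bp away and ranked 2557. On X the first inside, near lncRNA:CR44711, lay 47857 bp in and ranked 3898, and the first outside, at lncRNA:CR46472, lay 22115 bp out and ranked 29695.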

How the data were processed

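Peak lists on dm6 were used as deposited. Per the labels, each replicate was called against a control alignment, the pooled list on both replicates, and the IDR list from these. Aligner, caller and depth: not given in the sources used here. The deposited signal ranked peaks within a list only; the authors' −log10 q-value goes down to 0.405 in the pooled list, 0.735 in replicate 1 and 0.146 in replicate 2, so all 3 hold peaks with q above 0.05. Each peak's position was its start plus the deposited summit offset in bp.

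Genes came from Ensembl release 115 without its transposable-element entries, sequence and transposons from RefSeq's Release 6 assembly. Unique sequence was counted by words of 32 bases, copies by blastn 2.17.0+ (E-value 1e-10, at least 80% identity over 100 bp). Summits within 100 bp counted as shared. Python 3.11.15, numpy 2.4.6, pandas 2.3.3 and scipy 1.17.1 were used, and counting steps were tested on simulated data. No test was made: shares have Wilson 95% and densities exact Poisson 95% intervals. "Rest" is the rest of 2L, 3L, 3R and X; "other pooled peaks" are all non-members. Members, the 8 gene lists and the 13 motifs were chosen with earlier results of these data known. Genes named were those nearest to IDR members, to the 5 strongest members of a region and to peaks at the boundaries, and list genes with a pooled summit within 500 bp of a start site; genes of replicate 2 at the 2L, 3L and 3R ends, ey, and loci and windows described by their counts were chosen after their values were seen.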

Additional observations from a re-analysis of the deposited data

Results flagged for a closer look

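Peaks in the list of replicate 2 lay in regions where the pooled list has none: 17 at the 3L end and 4 at the 3R start, against 0 in replicate 1. Of the 17, 14 had a wholly unique window and 5 were at promoters, and of the 4, 2 had a wholly unique window and 1 was at a promoter. None of them had 50% or more annotated transposon. The control reads were not used here, and no cause was tested.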

How the results depend on the processing

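With 1 group, 2 replicates and no test, these lists describe how sites are distributed, and the unknown depth limits every count. No paired analysis was possible because there is 1 group. Of the values recomputed under an alternative, 98 stayed close and 59 moved. Close means within 1.5 times for a density or the median rank, inside the Wilson interval for a share, and within 1 SD of the replicates for A and T content.

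Peaks per Mb with −log10 q of at least 1.3 were 62.4 on chromosome 4, 19 at the 2L end and 19.1 at the X end, and in the IDR list 12, 5 and 6.21. With the boundary at 1 Mb the 2L end had 1 per Mb, and at 3 Mb the 2L and X ends had 101 and 54.9. Per Mb of unique sequence by words of 32, 24 and 50 bases, the 2L end had 64.7, 69 and 59.9 and the X end 82.5, 88.2 and 75. With the list of 1 replicate in place of the pooled one (leaving the other out), peaks per Mb ranged from 75.1 to 147 on chromosome 4, both outside its Poisson interval of 82.3 to 117, from 35.5 to 72 at the 2L end, from 26.9 to 56.9 at the X end, from 0 to 9 at the 3L end and from 0 to 2.01 at the 3R start.

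Members with a summit of replicate 1 were 65.2% within 50 bp, 80% within 200 bp, 85.9% by overlap and 84.8% among members with −log10 q of at least 1.3. For replicate 2 these were 34.4%, 54.1%, 60% and 63.9%. Shares of the other pooled peaks at these settings are not given here. The share in the IDR list was 21.7% with a boundary at 3 Mb and 24.1% with −log10 q of at least 1.3. Every IDR peak has a −log10 q of at least 4.23, so this cut kept all 38 IDR members and left 158 members. Of all pooled peaks, 18826 passed the cut, with all 7645 IDR peaks among them. The 24.1% is thus not to be set against the 25.5% of all 30000 pooled peaks.

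The promoter share was 31.9% within 250 bp and 55.9% within 1000 bp, where 5' UTRs had 0.37%, other exons 1.48% and introns 24.1%. Coding exons had 0.633% with −log10 q of at least 1.3. With transposable elements counted as genes (chosen after seeing the data), promoters had 57%, introns 21.5% and intergenic sequence 13%; without chromosome 4 (also chosen after) the median rank moved by under 1.5 times. Without 1 replicate, promoters ranged from 26.4% to 44.5%, intergenic sequence from 12.5% to 32.8% and summit A and T content from 62.1% to 64%. The lower promoter share and higher intergenic share were those of replicate 2 alone, so the promoter share of these regions rests on the list used.

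Wholly unique windows were 77.8% by words of 24 and 97% by words of 50, and copies at 90% identity were found for 5.19% of members. Genes of chromosome 4 with a start-site summit were 10% in the IDR list and ranged from 31.2% to 55% without 1 replicate; those of the ends were 15.6% with −log10 q of at least 1.3, 3.75% in the IDR list and ranged from 18.1% to 31.2% without 1 replicate. Within 50 bp, the TATA core was at 17.8% of members, CGATA at 12.2%, GAGAG at 12.2%, GGTCACAC at 0%, CAGCTG at 1.11%, CACACACA at 1.11%, AAAAAAAA at 8.52% and the AATAT satellite at 0%. The cause of these changes was not tested.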
